A study of Mus musculus with 54 samples.

Results

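The metallothioneins *Mt1* and *Mt2*, the zinc transporters *Slc30a1*, *Slc39a10* and *Slc39a14*, the metal-sensing transcription factor *Mtf1* and the copper importer *Slc31a1* were followed across the 4 groups of single mouse follicle sides. These 7 genes were taken by symbol from tables of 25149 genes, and 7 of 7 were found. In the 5 comparisons made here, 6 of the 7 passed the filter on low counts, and *Slc30a1* did not pass it in any of them. Follicles came from CD-1 mice aged 14 to 16 days, grew in alginate for 8 days, and then spent 12 h in maturation medium with or without hCG, the luteinizing hormone analog that induces ovulation. The 12 h media of both kinds held serum, EGF and recombinant FSH, so the groups without hCG were stimulated follicles as well. The groups were the putative unruptured side (n = 15) and putative ruptured side (n = 14) of no-hCG follicles, and the unruptured side (n = 12) and ruptured side (n = 13) post-hCG.

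Without hCG no follicle had ruptured, and the sides were set by follicle shape and an image model, hence the word putative. Follicles were freed with enzymes, and per the study the theca around them is in large part regrown, which limits them as a model of the wall in the ovary. The tissue label reads cumulus-oocyte complex, but per the study's methods the complexes were discarded before the sides were lysed. Oocyte markers (11 genes) summed to a median of 3.57, 1.04, 0.63 and 0.05 TPM (a level scaled for transcript length and library) in the group order given above. By mean TPM, *Zp3* led this list in putative unruptured sides and *Kit* led it in the other groups. The study lists *Kit* among genes of smooth muscle function, so these sums do not measure oocyte transcripts alone. Medians of *Gdf9*, *Bmp15* and *Zp3* were 0 TPM in every group. Libraries in which the oocyte genes *Gdf9*, *Bmp15*, *Zp1*, *Zp2* and *Zp3* summed to at least 1 TPM numbered 5 of 15, 2 of 14, 1 of 12 and 0 of 13, and results that changed without them are given with that value. Totals ran from 1497071 to 2834734 counts per library with a median of 2157092, no pair of libraries within a group agreed within counting noise, and the labels do not say which sides shared a follicle, so p-values measure the spread between sides.

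Metallothioneins are small cysteine-rich proteins that bind zinc and copper, buffer the free metal in the cell and react with oxidants. The factor MTF-1, encoded by *Mtf1*, binds zinc and switches on *Mt1*, *Mt2* and the zinc exporter gene *Slc30a1* through short promoter motifs called metal response elements, and metallothionein genes also answer to glucocorticoids and cytokines. Transporters of the Slc30a family carry zinc out of the cytosol, whereas those of the Slc39a family carry it in. In the ovary, zinc is best known for its rise in the maturing oocyte and its release at fertilization, with *Slc39a10* among the importers described there.

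*Mt2* and *Mt1* lie side by side on the plus strand of chromosome 8. In the GENCODE annotation of GRCm38, *Mt2* spans chr8:94172664-94173568 and *Mt1* spans chr8:94179082-94180327, with 5513 bases between them. *Slc30a1* lies at chr1:191906767-191913247, *Slc39a10* at chr1:46807544-46892852, *Slc39a14* at chr14:70303469-70351425, *Mtf1* at chr4:124802104-124849800 and *Slc31a1* at chr4:62360727-62391769. An antisense gene, *Gm45774*, overlaps 749 of the 905 bases of *Mt2*, by whole gene spans with introns included. No strand setting was stated for the counting, so how reads in the overlap were assigned is not known. Estimated counts of *Mt2* were fractional in 27 of 54 libraries and those of *Mt1* in 0 of 54. The effect of the overlap on *Mt2* levels, and so on their ratio to *Mt1*, was not tested. *Mt1* and *Mt2* transcripts shared no stretch of 25 or 30 bases and only 1 of 20 bases.

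Sequences upstream of the 3 textbook MTF-1 targets among the members are shown as stretches that were searched for the metal response element. Elements outside these stretches, such as closer to or past the gene start, would be missed. The sequences come from RefSeq promoters of GRCm38.p6 and end before the annotated gene. Capitals mark each match to the element's core, TGCACNC or TGCGCNC, on either strand.
Mt2, chr8:94172368-94172617, plus strand: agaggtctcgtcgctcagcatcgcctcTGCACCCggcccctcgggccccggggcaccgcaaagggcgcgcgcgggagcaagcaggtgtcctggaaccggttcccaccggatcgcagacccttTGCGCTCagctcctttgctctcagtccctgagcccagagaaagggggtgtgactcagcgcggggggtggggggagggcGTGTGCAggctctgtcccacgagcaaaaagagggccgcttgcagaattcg
Mt1, chr8:94178839-94179081, plus strand: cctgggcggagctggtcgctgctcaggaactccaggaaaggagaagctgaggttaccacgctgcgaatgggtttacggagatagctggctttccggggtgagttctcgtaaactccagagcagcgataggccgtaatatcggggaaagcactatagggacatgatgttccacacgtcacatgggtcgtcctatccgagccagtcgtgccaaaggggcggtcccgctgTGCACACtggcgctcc
Slc30a1, chr1:191906531-191906766, plus strand: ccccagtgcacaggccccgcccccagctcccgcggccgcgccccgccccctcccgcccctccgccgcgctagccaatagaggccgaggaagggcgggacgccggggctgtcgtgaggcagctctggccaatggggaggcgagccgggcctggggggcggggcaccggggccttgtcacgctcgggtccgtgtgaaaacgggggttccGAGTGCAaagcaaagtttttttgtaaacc

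In the 250 bases before the RefSeq start, the core matched 3 times for *Mt2*, once for *Mt1* and once for *Slc30a1*. Of 32851 promoter windows of that length, 21.4% held at least 1 match and 1.26% held at least 3. Matches in *Mt2* began 223, 128 and 50 bases before the start, that in *Mt1* 23 bases and that in *Slc30a1* 43 bases before it. Windows of *Slc39a10* (2 starts), *Mtf1* and *Slc31a1* held no match, which says only that these letters were not in that stretch. Bases past the RefSeq start were not searched, so the numbers of matches for *Mt1*, *Mt2* and *Slc30a1* hold for these windows only. A match is a description of the letters and was not tested as a binding site.

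*Mt1* was the most abundant member in every group by mean TPM, and *Mt2* was next. In putative unruptured sides *Mt1* ran from 47.8 to 411 TPM with a median of 214.8, and in putative ruptured sides from 72.8 to 403 TPM with a median of 133.6. Post-hCG, unruptured sides held 491.9 to 2622 TPM of it (median 1435) and ruptured sides 329.6 to 1269 TPM (median 496.4). By mean TPM, *Mt1* stood at rank 311, 370, 91 and 162 of all genes in the group order given above. The unruptured side post-hCG thus held the highest *Mt1* levels, and the putative sides overlapped almost throughout.

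*Mt2* ran from 8.07 to 186.9 TPM (median 73.0) in putative unruptured sides and from 10.3 to 93.4 TPM (median 24.5) in putative ruptured sides. Its range post-hCG was 161 to 828 TPM (median 625) on the unruptured side and 111 to 389 TPM (median 245.5) on the ruptured side. Together, both genes took 0.0126% ± 0.00557 (SD, n = 15), 0.00909% ± 0.00492 (SD, n = 14), 0.0750% ± 0.0310 (SD, n = 12) and 0.0296% ± 0.0111 (SD, n = 13) of the counts, in the group order given above.

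**Figure D1:**
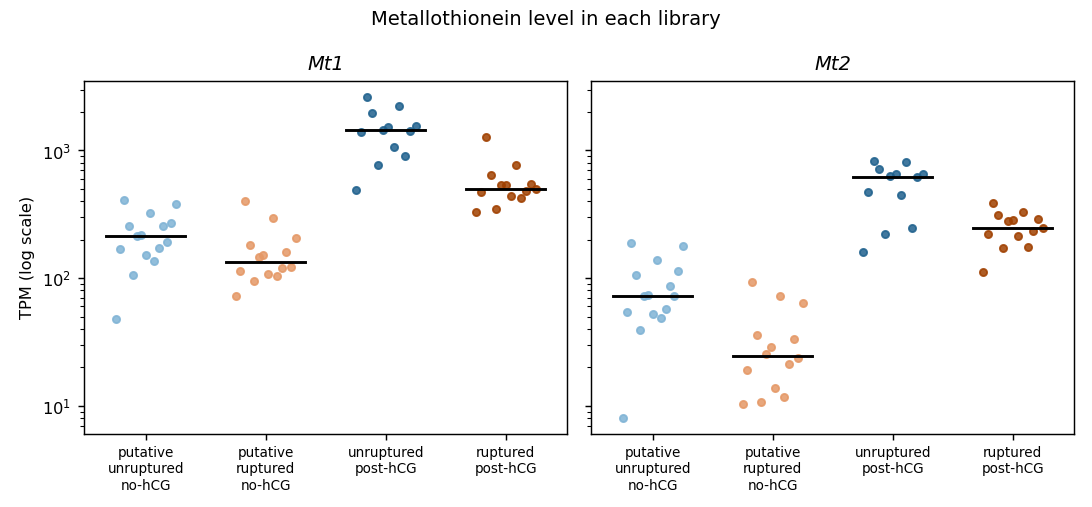
TPM on a log axis of *Mt1* (left) and *Mt2* (right) in each of the 54 libraries, by group, with a black line at the group median. The 12 unruptured sides post-hCG all sat above the 15 putative unruptured sides for *Mt1*, and the 13 ruptured sides post-hCG all sat above the 14 putative ruptured sides for *Mt2*.

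Both metallothioneins rose with hCG on both sides. On the unruptured side, *Mt1* was 6.74-fold higher post-hCG (log2FC 2.75 ± 0.25 SE, FDR 7.56e-11) and *Mt2* was 7.05-fold higher (log2FC 2.82 ± 0.30 SE, FDR 2.46e-09), by the edgeR quasi-likelihood test, adjusted after Benjamini and Hochberg over all genes tested, which gave every log2FC, SE and FDR below unless another tool is named. *Mt1* did not overlap between these groups, with 12 of 12 libraries post-hCG above all 15 without hCG, which 3.71% of 9990 genes also showed upward. For *Mt2*, 11 of 12 libraries post-hCG exceeded the highest library without hCG. On the ruptured side *Mt1* was 3.54-fold higher post-hCG (log2FC 1.82 ± 0.22 SE, FDR 1.41e-08), and 11 of 13 libraries exceeded the highest without hCG. *Mt2* was 7.58-fold higher there (log2FC 2.92 ± 0.26 SE, FDR 1.74e-11), and 13 of 13 libraries exceeded all 14 without hCG, as did 3.10% of 9702 genes upward.

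Calls with hCG were frequent among all genes. Of all genes tested, 53.1% passed on the unruptured side (25.4% upward, 27.7% downward) and 60.1% on the ruptured side (29.7% upward, 30.4% downward), against 4 of the 6 members tested on either side, all 4 upward. By p-value, *Mt1* ranked 373 and *Mt2* 565 among 9320 genes on the unruptured side, and 1127 and 586 among 8531 genes on the ruptured side. When libraries were scaled by their totals alone, the median log2FC of all genes fell from -0.03 to -0.25 on the unruptured side and from 0.00 to -0.33 on the ruptured side, so hCG values are relative to that shift.

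Post-hCG, both metallothioneins were lower on the ruptured side than on the unruptured side. *Mt1* was 2.31-fold lower (log2FC -1.21 ± 0.21 SE, FDR 8.32e-05) and *Mt2* was 2.15-fold lower (log2FC -1.10 ± 0.22 SE, FDR 0.000345). All 13 ruptured sides lay below the median unruptured side for either gene, and 6 of them lay below the lowest unruptured side for *Mt1* and 1 for *Mt2*. Of 8585 genes tested, 21.4% passed (11.3% downward), against 2 of 6 members, both downward. Leaving out each of the 25 libraries in turn kept *Mt1* between -1.37 and -1.13 and *Mt2* between -1.18 and -1.02, with every FDR under the threshold.

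Without hCG, the side difference passed for *Mt2* and not for *Mt1*. *Mt2* was 2.31-fold lower in putative ruptured sides (log2FC -1.21 ± 0.34 SE, FDR 0.0108), where 13 of 14 libraries lay below the median of the putative unruptured side. *Mt1* had a log2FC of -0.28 ± 0.25 (SE) and an FDR of 0.484, with 12 of 14 libraries below that median. Without the 7 libraries that held oocyte transcripts, *Mt2* kept a log2FC of -1.13 ± 0.37 (SE) but its FDR was 0.0538. In this comparison 17.8% of 9063 genes passed (8.84% upward, 8.96% downward), against 1 of 6 members.

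Markers of other cell types moved with the sides and with hCG. The theca and stroma list (12 genes, led by *Col3a1*, *Insl3* and *Dcn*) summed to 37.5 to 2836 TPM (median 570.4) in putative unruptured sides and 19.5 to 609 TPM (median 94.2) in putative ruptured sides. Post-hCG it summed to 319.7 to 1544 TPM (median 490.9) on the unruptured side and 132.1 to 473.9 TPM (median 301.7) on the ruptured side, where *Lhcgr*, the luteinizing hormone receptor that granulosa cells also make, led the list and the theca enzyme gene *Cyp17a1* was at 0 in 13 of 13 libraries. Of its genes tested, 8 of 10 fell toward the putative ruptured side and none rose, and post-hCG 6 of 7 fell and 1, *Lhcgr*, rose. Granulosa markers (11 genes) went the other way without hCG, with 8 of 10 higher and none lower in putative ruptured sides (summed medians 4143 and 14440 TPM), and post-hCG 3 of 7 were higher and 1 lower (summed medians 1589 and 1374 TPM). An immune list of 6 genes, led by the macrophage gene *Lyz2* in every group but the ruptured side post-hCG, had summed medians of 30.8, 0.63, 12.7 and 0.75 TPM in the group order given above. Smooth muscle markers (6 genes) summed to medians of 34.7, 5.43, 4.54 and 2.38 TPM and endothelial markers (6 genes) to 1.87, 0.865, 12.6 and 7.55 TPM in that order. With hCG, granulosa genes fell in 8 of 10 tested on each side and rose in 2 and 1, and theca and stroma genes fell in 5 of 10 and 3 of 4 and rose in 2 and 1. Of the endothelial list, 1 gene was tested on the unruptured side and rose, and none was tested on the ruptured side. Among all genes tested, 27.7% fell and 25.4% rose on the unruptured side, and 30.4% fell and 29.7% rose on the ruptured side. The part of these markers in the metallothionein differences between sides and with hCG was not tested. In such bulk samples fewer cells of a type and less RNA per cell cannot be told apart.

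Across libraries of the putative unruptured side, log2(TPM + 1) of *Mt1* followed the theca and stroma level (r = 0.76, permutation p = 0.00388, adjusted 0.0155 over 16 correlations; rho = 0.468, permutation p = 0.0812, adjusted 0.217). Without the 2 libraries farthest from the median theca level r was 0.166, so the relation rested on those libraries. Replicate 14 had both the lowest *Mt1* (47.8 TPM) and the lowest theca sum (37.5 TPM), and replicate 7 had both the highest *Mt1* (411 TPM) and the highest theca sum (2836 TPM). In the other groups r was 0.381, 0.256 and -0.085, with adjusted permutation p of 0.396, 0.653 and 0.944. On the ruptured side post-hCG *Lhcgr* led the theca and stroma sum. Medians there were 3.67 TPM for *Col3a1*, 0.31 TPM for *Dcn* and 0 TPM for *Insl3*. The r of -0.085 thus says little about theca content.

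Between libraries of the same group, *Mt1* and *Mt2* moved together in 3 of the 4 groups. Pearson's r of their log2(TPM + 1) was 0.838 in putative unruptured sides, 0.591 in putative ruptured sides, 0.914 on the unruptured side post-hCG and 0.839 on the ruptured side post-hCG, with adjusted permutation p of 0.00325, 0.0811, 0.00048 and 0.00325. Spearman's rho was 0.775, 0.604, 0.811 and 0.868, with adjusted permutation p of 0.00904, 0.0975, 0.0113 and 0.00384. Without the 2 libraries farthest from the median of *Mt2*, r was 0.529, 0.32, 0.775 and 0.825. The link was thus steadiest post-hCG, and in putative ruptured sides it did not pass. For *Mt1* with *Mtf1*, r ran from -0.365 to 0.069, and with *Slc30a1* from -0.099 to 0.468, and none of these 8 passed (lowest adjusted permutation p of 0.219).

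The balance of the pair differed by group. The log2 ratio of *Mt1* to *Mt2*, each as log2(TPM + 1), was 1.46 ± 0.59 (SD, n = 15) in putative unruptured sides and 2.43 ± 0.80 (SD, n = 14) in putative ruptured sides. It was 1.46 ± 0.32 (SD, n = 12) on the unruptured side and 1.14 ± 0.28 (SD, n = 13) on the ruptured side post-hCG. The TPM of *Mt1* over that of *Mt2* within a library had a median of 5.27 in putative ruptured sides, against 2.59, 2.58 and 2.05 in the putative unruptured, unruptured and ruptured sides. The putative ruptured side was higher than the putative unruptured side by 0.97 (two-sided permutation test, p = 0.00094, adjusted 0.00188 over 4 tests). Post-hCG the ruptured side was lower by 0.32 (log2 difference -0.32, permutation p = 0.0138, adjusted 0.0184). With hCG the ratio fell by 1.30 on the ruptured side (permutation p = 4e-05, adjusted 0.00016), whereas on the unruptured side the difference was -0.0063 (permutation p = 0.979). The putative ruptured side stood apart from the other groups in its mean, yet its libraries spread from 1.17 to 3.81 and overlapped all of them.

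**Figure D2:**
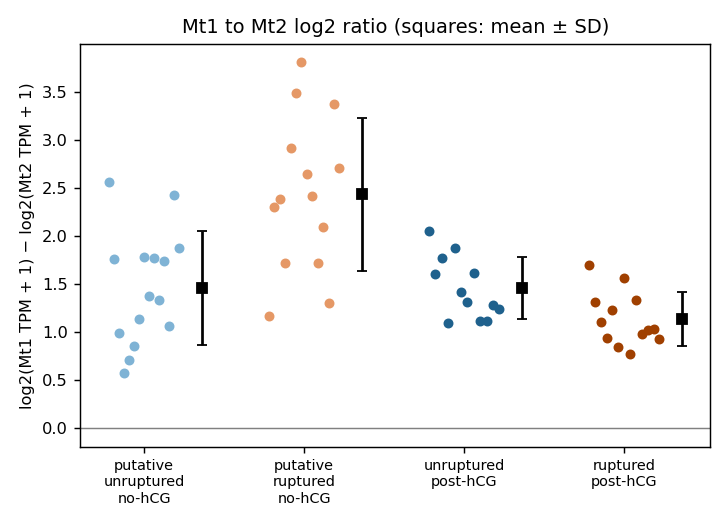
Difference of log2(*Mt1* TPM + 1) and log2(*Mt2* TPM + 1) in each library (circles) by group, with the mean ± SD as a square and bar. The mean was 2.43 in putative ruptured sides and between 1.14 and 1.46 in the other groups.

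Whether the hCG response differed by side was tested gene by gene as the interaction of side and medium. For *Mt1* it was -0.93 ± 0.34 (SE) on the log2 scale with an FDR of 0.0754, so the smaller rise on the ruptured side did not pass, although it did under 2 of 7 alternatives. For *Mt2* it was 0.11 ± 0.40 (SE) with an FDR of 0.915. No member passed, and 8.91% of 10013 genes did (4.25% upward, 4.65% downward). At an unadjusted p of 0.00863, *Mt1* alone among the members was under 0.05, and DESeq2 called none.

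**Figure D3:**
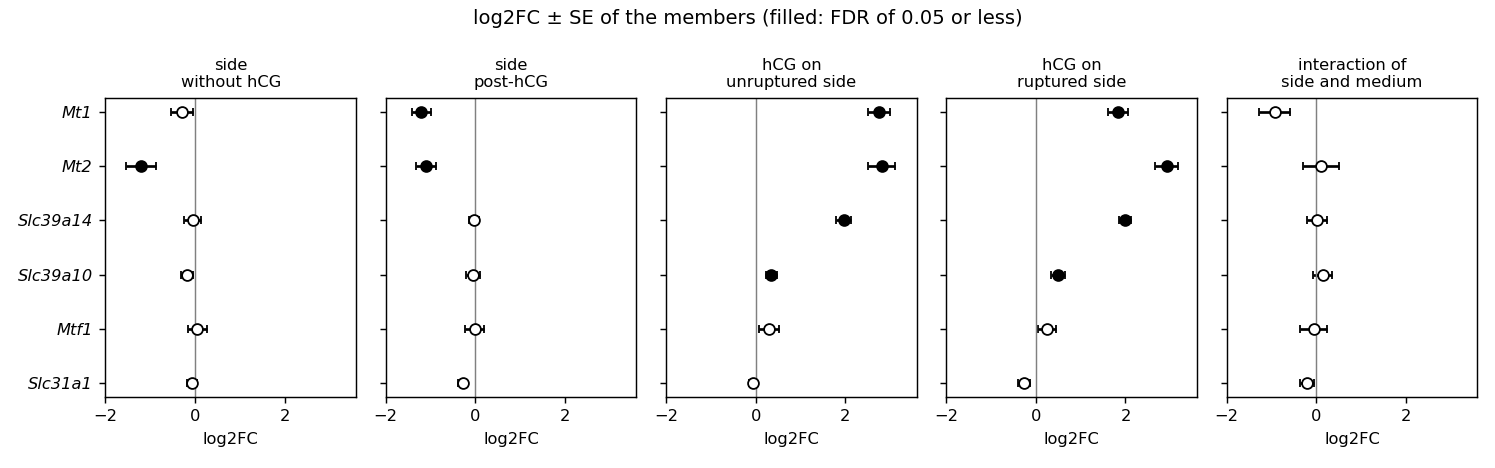
log2FC ± SE of the 6 members tested, in each of the 5 comparisons (filled circles, FDR of 0.05 or less). Positive values are higher on the (putative) ruptured side in the side panels and higher post-hCG in the hCG panels. *Mt1*, *Mt2* and *Slc39a14* lay far above 0 in both hCG panels, and *Mt1* and *Mt2* lay below 0 for the sides post-hCG.

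The other metallothionein genes were scarce. *Mt3*, the form best known from brain, failed the filter on low counts, with 6 counts summed over 15 putative unruptured sides, 14 over 14 putative ruptured sides, 46 over 12 unruptured sides and 38 over 13 ruptured sides post-hCG. Without the filter its log2FC with hCG was 3.19 ± 0.52 (SE, FDR 5.91e-06) on the unruptured side and 1.42 ± 0.46 (SE, FDR 0.0136) on the ruptured side, at 0 to 9 counts per library. *Mt3* and *Mt1* transcripts shared 3 stretches of 25 bases and none of 30. *Mt4*, a form of stratified epithelium, was listed at 0 in all 54 libraries, which allows up to 3 counts in each, or 1.06 to 2.0 CPM.

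*Slc39a14*, an importer of zinc that also carries iron and manganese, rose with hCG on both sides and did not differ between them beyond the spread. Its estimated counts ran from 8 to 33 (median 20) in putative unruptured sides, 6 to 23 (median 14) in putative ruptured sides, 33 to 83 (median 62.5) on the unruptured side and 34 to 85 (median 55) on the ruptured side post-hCG. These counts are not scaled for depth, and median library totals were 2362975, 1744895, 2134077 and 2192172 counts in the same order. The gene was 3.91-fold higher on the unruptured side (log2FC 1.97 ± 0.17 SE, FDR 1.01e-11) and 3.97-fold higher on the ruptured side (log2FC 1.99 ± 0.14 SE, FDR 6.02e-14). The interaction was 0.02 ± 0.22 (SE, FDR 0.971), and the side differences were -0.05 ± 0.19 without hCG and -0.03 ± 0.12 post-hCG (SE, FDR 0.899 and 0.898).

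In TPM, the rise of *Slc39a14* was less clean. Medians were 1.67, 2.81, 9.53 and 8.51 TPM in the group order given above, but without hCG the range reached 9.83 TPM on the putative unruptured and 14.25 TPM in putative ruptured sides, so that 5 of 12 and 1 of 13 libraries post-hCG exceeded the highest without hCG. The coefficient of variation was 93.8% in TPM and 43.3% in CPM (counts scaled to the library total alone) in putative unruptured sides. CPM divided by TPM, which would be nearly constant for a fixed transcript length, ran from 0.826 to 9.02 for *Slc39a14* in putative unruptured sides and from 0.409 to 0.5 for *Mt1*. The transcript length used for *Slc39a14* thus differed between libraries, and its TPM carried that spread. On log2(TPM + 1) limma still called the gene with hCG on both sides.

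*Slc39a10*, the plasma membrane importer, had medians close to each other in all groups. It ran from 1.97 to 6.06 TPM (median 3.77), 1.16 to 7.90 TPM (median 3.16), 2.81 to 6.95 TPM (median 4.04) and 1.56 to 4.64 TPM (median 2.86) in the group order given above, and all groups overlapped. By counts it was 1.28-fold higher with hCG on the unruptured side (log2FC 0.35 ± 0.13 SE, FDR 0.0230) and 1.41-fold higher on the ruptured side (log2FC 0.50 ± 0.16 SE, FDR 0.00749). With library totals alone these were 0.12 (FDR 0.483) and 0.15 (FDR 0.429), and with limma on log2(TPM + 1) 0.18 (FDR 0.357) and -0.07 (FDR 0.795). Neither call held with these alternatives, while each passed in 7 of 9 settings, the main test included. On the ruptured side the direction turned with limma, whose TPM carry the spread in transcript length. Side differences were -0.19 ± 0.14 without hCG and -0.05 ± 0.15 post-hCG (SE, FDR 0.386 and 0.863).

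*Slc30a1*, the zinc exporter of the plasma membrane and a textbook MTF-1 target, was near the limit of detection. Its counts ran from 2 to 6.87 (median 3), 1 to 6 (median 2.5), 0 to 6 (median 3) and 0 to 5 (median 2) per library, or medians of 0.16, 0.16, 0.20 and 0.11 TPM. Fitted without the filter, its log2FC with hCG was -0.18 ± 0.34 (SE, FDR 0.720) on the unruptured side and -0.44 ± 0.37 (SE, FDR 0.364) on the ruptured side.

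*Mtf1* itself did not pass in any comparison. It ran from 0.22 to 3.61 TPM (median 2.03), 0.79 to 4.49 TPM (median 2.35), 0.71 to 4.21 TPM (median 2.19) and 0.35 to 4.78 TPM (median 1.97), at 3.07 to 23.27 counts per library. The log2FC with hCG was 0.29 ± 0.22 (SE, FDR 0.282) on the unruptured side and 0.24 ± 0.20 (SE, FDR 0.293) on the ruptured side, and the latter turned to -0.07 with library totals and to -0.06 with limma on log2(TPM + 1). Side differences were 0.05 ± 0.21 and -0.01 ± 0.21 (SE, FDR 0.915 and 0.977).

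*Slc31a1*, the high-affinity copper importer, ran from 3.08 to 7.93 TPM (median 5.88) in putative unruptured sides, 2.88 to 7.64 TPM (median 5.49) in putative ruptured sides, 4.21 to 6.66 TPM (median 6.08) on the unruptured side and 2.97 to 5.35 TPM (median 3.78) on the ruptured side post-hCG. All 13 ruptured sides lay below the median of the unruptured side, and 10 lay below its lowest library. By counts the difference was -0.28 ± 0.11 (SE, FDR 0.0562) and just missed the threshold. It passed with library totals (log2FC -0.44, FDR 0.0016), which also moved the median of all genes from 0.01 to -0.14. It also passed with limma on log2(TPM + 1) (log2FC -0.48, FDR 0.000736). Among all genes called, 17.8% and 8.99% were higher under these settings, against 47.0% by the main test, so both leaned downward. The difference passed in 2 of 9 settings, and the library values above are in TPM, the scale limma used. For hCG on the ruptured side, the log2FC was -0.26 ± 0.13 (SE, FDR 0.0716) and passed with library totals (log2FC -0.60, FDR 0.000103), with limma (log2FC -0.37, FDR 0.0145) and with all groups in the same fit (log2FC -0.26, FDR 0.0412). On the unruptured side it was -0.06 ± 0.09 (SE, FDR 0.606), and -0.28 (FDR 0.0280) with library totals.

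**Figure D4:**
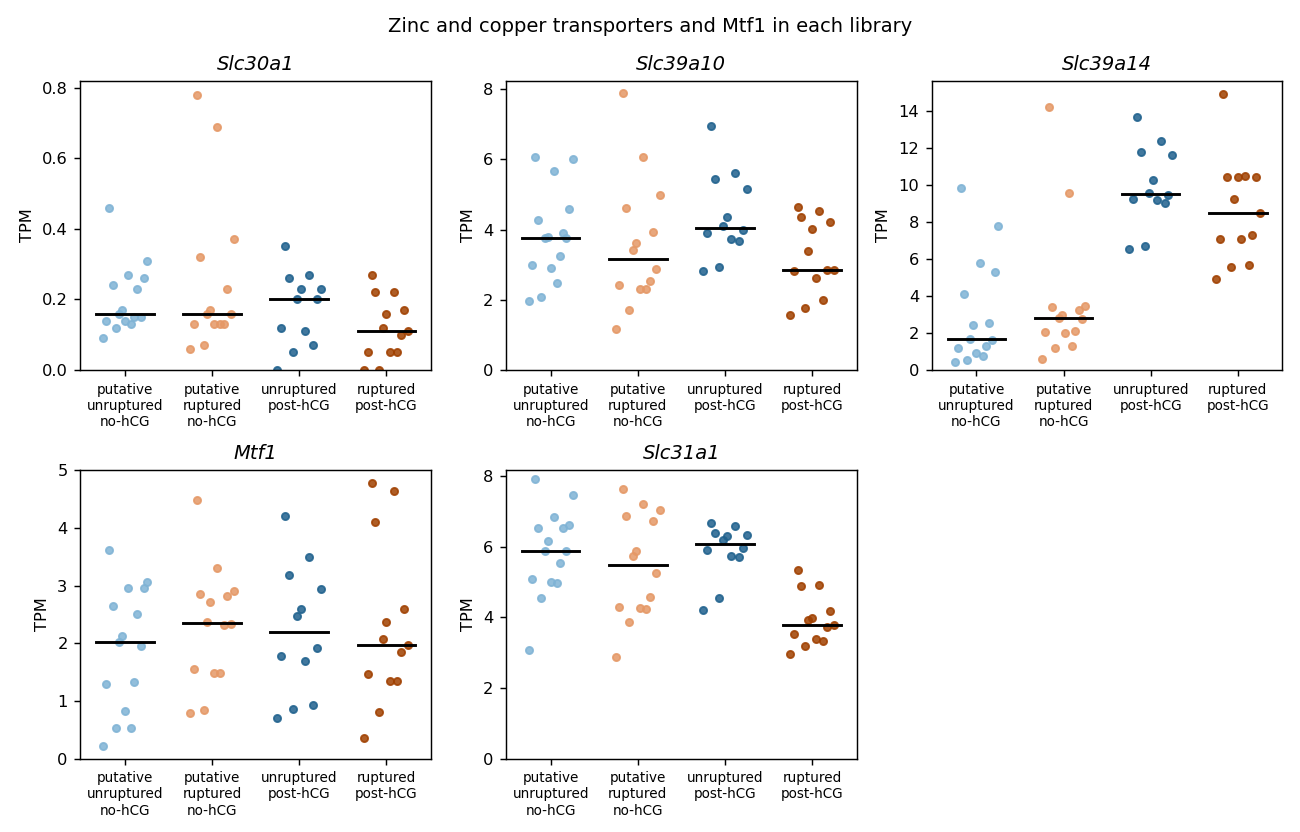
TPM of *Slc30a1*, *Slc39a10*, *Slc39a14*, *Mtf1* and *Slc31a1* in each library by group, with a black line at the median and each axis starting at 0. Post-hCG medians of *Slc39a14* (9.53 and 8.51 TPM) stood above those without hCG (1.67 and 2.81 TPM), and *Slc31a1* was lowest on the ruptured side post-hCG (median 3.78 TPM).

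Of 10 zinc exporter genes 5 were tested, and with hCG 1 rose and 1 fell on the unruptured side and 2 rose on the ruptured side, fewer in share than the 53.1% and 60.1% of all genes, with a median log2FC of -0.01 and 0.07 (all genes, -0.03 and 0.00). *Slc30a9*, also called ZnT9, rose on both sides (0.68 ± 0.10 and 0.26 ± 0.11 SE), *Slc30a4* fell on the unruptured side (-0.70 ± 0.13 SE) and *Slc30a5* rose on the ruptured side (0.35 ± 0.13 SE). With library totals the counts were 1 up and 2 down on the unruptured side and 0 up and 1 down on the ruptured side, so the upward calls on the ruptured side depended on the scaling. Between sides, *Slc30a9* alone passed, and only without hCG, where it was higher in putative ruptured sides (0.50 ± 0.11 SE, FDR 0.00121).

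Among the 14 zinc importer genes 9 were tested, and 5 rose and none fell with hCG on each side, with a median log2FC of 0.28 and 0.50 (all genes, -0.03 and 0.00). The share of importers called was near that of all genes (53.1% and 60.1%). *Slc39a14* was the only importer past a log2FC of 1, and *Slc39a13*, an importer of the early secretory pathway, followed at 0.65 ± 0.12 (SE, FDR 1.88e-05) and 0.65 ± 0.12 (SE, FDR 1.65e-05). With library totals 2 rose on each side, *Slc39a13* and *Slc39a14*, none fell on the unruptured side and 3 fell on the ruptured side. Without hCG 1 importer was higher and 1 lower in putative ruptured sides, *Slc39a7* (0.44 ± 0.12 SE) and *Slc39a11* (-0.57 ± 0.13 SE). Only *Slc39a1* was lower on the ruptured side post-hCG (-0.35 ± 0.10 SE, FDR 0.00799), where 13 of 13 ruptured sides lay below the unruptured median.

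In the copper list (18 genes, which include *Mtf1* and *Slc31a1*), 7 of 17 tested rose and 1 fell with hCG on the unruptured side, and 6 of 15 rose and 2 fell on the ruptured side, against 5 and 4 up and 4 and 4 down with library totals. Of all genes, 53.1% and 60.1% were called, so the list lay near or below the background. *Steap2*, a metalloreductase, rose by 1.65 ± 0.16 (SE) and 1.88 ± 0.21 (SE) on the log2 scale and did not overlap between media on the unruptured side, as 3.71% of genes did upward. *Cox17*, the copper chaperone for cytochrome oxidase, rose by 1.35 ± 0.15 (SE) on the unruptured side. *Slc31a2*, a relative of *Slc31a1*, rose by 1.15 ± 0.22 (SE) on the ruptured side. *Cp*, which encodes ceruloplasmin, fell by 1.71 ± 0.32 (SE) on the unruptured side.

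Some genes of copper-dependent secreted enzymes differed between the sides. *Lox*, which encodes the collagen cross-linking lysyl oxidase, rose by 1.04 ± 0.34 (SE) on the unruptured side and 2.93 ± 0.33 (SE) on the ruptured side, with an interaction of 1.88 ± 0.49 (SE, FDR 0.00981). *Sod3*, the extracellular superoxide dismutase, fell by 1.31 ± 0.24 (SE) with hCG on the ruptured side, and its interaction was -1.76 ± 0.32 (SE, FDR 0.000204). Post-hCG, the ruptured side was higher in *Lox* (1.16 ± 0.24 SE) and lower in *Sod3* (-1.29 ± 0.22 SE) and *Loxl1* (-2.07 ± 0.35 SE). In all, 1 of 16 copper genes was higher and 4 were lower on the ruptured side post-hCG, against 21.4% of all genes called. Without hCG 1 of 17 was higher and 1 lower, against 17.8% of all genes.

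In the iron list (14 genes), 6 of 13 tested rose and 2 fell with hCG on the unruptured side, and 7 rose and 4 fell on the ruptured side, against 3 and 4 up and 2 and 5 down with library totals and 53.1% and 60.1% of all genes called. *Trf*, which encodes transferrin, rose by 3.23 ± 0.42 (SE) and 3.22 ± 0.58 (SE), with libraries that overlapped between media on both sides. The transferrin receptor gene *Tfrc* rose by 2.11 ± 0.21 (SE) and 1.92 ± 0.18 (SE) and did not overlap between media on either side, as 3.71% and 3.10% of genes did upward. *Ftl1*, ferritin light chain, rose by 1.04 ± 0.12 (SE) and 1.16 ± 0.11 (SE), whereas the iron oxidase gene *Heph* fell by 1.59 ± 0.25 (SE) and 1.58 ± 0.25 (SE). *Hmox1*, the heme-degrading enzyme, was lower on the ruptured side post-hCG (-1.35 ± 0.18 SE, FDR 1.58e-06), where 12 of 13 libraries lay below the lowest unruptured side, and its interaction was -1.03 ± 0.26 (SE, FDR 0.00728). Without hCG *Trf* was lower in putative ruptured sides (-1.13 ± 0.34 SE, FDR 0.0171).

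**Figure D5:**
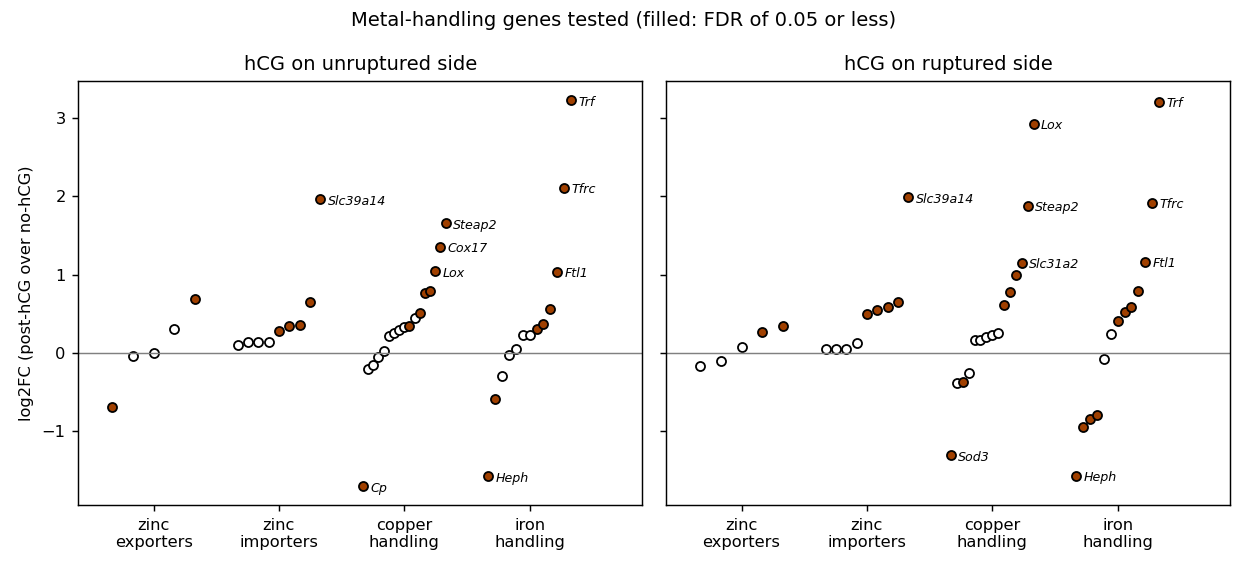
log2FC with hCG (post-hCG over no-hCG) of each gene tested in the zinc exporter, zinc importer, copper and iron lists, on the unruptured (left) and ruptured (right) side. Filled circles had an FDR of 0.05 or less, and those with an absolute log2FC of at least 1 carry their symbol. *Slc39a14* was the only zinc transporter past that size, at 1.97 and 1.99.

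Over all 54 libraries and 9888 genes whose mean reached 1 TPM, the genes most like *Mt1* by Pearson's r of log2(TPM + 1) were *Scd1* (r = 0.929), *Mt2* (r = 0.926), *Pgm2* (r = 0.922), *Pgam1* (r = 0.91) and *Map2k1* (r = 0.905). *Scd1* encodes a fatty acid desaturase, *Pgm2* and *Pgam1* encode enzymes of sugar metabolism and *Map2k1* encodes the kinase MEK1. The mean of the 4 within-group r was 0.589, 0.795, 0.462, 0.487 and 0.571 for these genes, highest for *Mt2*. *Slc39a14* was most like *Far1* (r = 0.792), *RP23-122F3.1* (r = 0.791), *Klc1* (r = 0.783), *Per1* (r = 0.782) and *Pcsk5* (r = 0.778), with mean within-group r of 0.474, 0.384, 0.375, 0.42 and 0.229. Between *Mt1* and *Slc39a14*, r was 0.539 over all libraries and the mean within-group r was -0.042. These values are descriptions over libraries that share a group.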

How the data were processed

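Smart-Seq2 libraries of single follicle sides were analysed, for which the authors used HISAT2 with GRCm38 as the reference, followed by ComBat-seq. The deposited estimated counts per gene (72.2% of non-zero values whole) come from a counting program not given in the sources used here, and the sources used here do not state whether they precede the batch correction or name the batches. The deposited TPM values were scaled by the authors for transcript length and library, and sum to 585981 to 678417 per library over the listed genes. All columns were matched to samples (0 left over). Column names carried the letters B to D for libraries post-hCG and F to H for those without hCG. What these letters stand for is not stated, and in the hCG comparisons they cannot be told apart from the medium. The sides also followed the letters in large part. Post-hCG, B held unruptured sides only, D ruptured sides only and C both. Without hCG, F held putative unruptured sides only, H putative ruptured sides only and G both. The part of the letters in the side differences was not tested.

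The quasi-likelihood test of edgeR 4.0.16 (R 4.3.3) was run on rounded counts with TMM factors after filterByExpr (count of 10 in enough libraries, 15 in total), at a Benjamini-Hochberg FDR of 0.05, each comparison on its own groups and the interaction on all 4. SE is the absolute log2FC over the root of F. Alternatives were DESeq2 1.42.0, limma 3.58.1 with trend on log2(TPM + 1) for genes whose mean reached 1 TPM, RLE size factors, library totals, no filter, all groups in the same fit, the replicate number as a block and, for the sides, leaving out each library; leaving out libraries with oocyte transcripts was added after seeing the data. Permutation tests (two-sided, 100000 resamples) and correlations used Python 3.11.15, numpy 2.4.6, scipy 1.17.1 and pandas 2.3.3. Scripts were tested on simulated data. Depth limits genes with few counts.

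The members and lists were chosen with earlier results of these data known. Named beside the 7 members were metallothionein, zinc, copper and iron genes past the FDR with an absolute log2FC of at least 1, and the 5 genes most like *Mt1* and *Slc39a14*; other list genes named were picked after their values were seen. Positions are from GENCODE M21, promoters from RefSeq (GRCm38.p6), with an entry for 6 of 7 members. RNAscope data of the study were not analysed here.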

Additional observations from a re-analysis of the deposited data

Results flagged for a closer look

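The side difference of the *Mt1* to *Mt2* log2 ratio had opposite signs without hCG and post-hCG. It was 0.97 without hCG and -0.32 post-hCG, a difference of -1.29 (two-sided permutation test with side labels permuted within each medium, p = 6e-05), and this test was chosen after seeing the data. Such permutation assumes no side difference in either medium, so its p does not measure whether the side difference was equal in both. Each library enters as 1 value, and the putative ruptured side, which had the highest mean ratio, also had the widest spread (SD 0.80) and the lowest median *Mt2* level (24.5 TPM). With a pseudocount of 0.1 TPM the difference was -1.32 (p = 6e-05). The gene-by-gene interaction passed for neither gene (FDR 0.0754 for *Mt1* and 0.915 for *Mt2*).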

How the results depend on the processing

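Scaling by library totals alone turned more calls downward in each comparison. The share of genes called that were higher went from 49.7% to 39.3% for the sides without hCG, 47.0% to 17.8% post-hCG, 47.8% to 27.5% for hCG on the unruptured side, 49.4% to 24.5% on the ruptured side and 47.8% to 25.8% for the interaction. With limma on log2(TPM + 1) it was 43.3%, 8.99%, 57.6%, 34.3% and 11.1%. Under library totals the interaction for *Mt1* passed (log2FC -1.07, FDR 0.0306), so 1 member was called, and that for *Mt2* turned to -0.0278, that for *Slc39a14* to -0.0747, and *Mtf1* to -0.0163 for the sides without hCG and to -0.0661 for hCG on the ruptured side. On log2(TPM + 1), limma called 1054 genes for the sides without hCG against 1613, and turned *Slc39a14* to 0.23 there, *Slc31a1* to 0.016 for hCG on the unruptured side, *Slc39a10* to -0.0653 and *Mtf1* to -0.0649 for hCG on the ruptured side, and the interactions of *Slc39a10* and *Slc39a14* to -0.24 and -0.45. Of these reversed values only *Slc39a10* for hCG on the ruptured side had been called (0.50). The cause was not tested.

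Without the libraries that held oocyte transcripts, an alternative chosen after seeing the data, 752 genes were called for the sides without hCG (60.0% higher) and 0 members, since *Mt2* (-1.13) had an FDR of 0.0538. The interaction then had 576 genes against 892, and *Mtf1* turned to -0.0335 for the sides without hCG. Fewer libraries entered these fits.

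The replicate numbers did not pair the samples: same-numbered libraries correlated above 0.1 in 3 of 14, 5 of 12, 4 of 12 and 1 of 13 pairs, and correlated best with their own number in 1, 2, 1 and 1. With the replicate block the genes called were 1414, 1743, 4455, 4989 and 992, the *Mt1* interaction passed (-0.87, FDR 0.0328), so 1 member was called, and *Mtf1* for the sides post-hCG and *Slc31a1* for hCG on the unruptured side turned to 0.005 and 0.0187. In the other 4 comparisons *Mt2* kept its call with the block, *Mt1* kept its call in 3, and *Mt1* for the sides without hCG was uncalled with and without it.

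Leaving out each library gave 1401 to 1724 genes for the sides without hCG and 1611 to 1904 post-hCG, with 1 and 2 to 3 members called. Without hCG, *Mt2* ran from -1.42 to -1.07 and *Mt1* from -0.44 to -0.16. *Slc39a14* ran from -0.12 to 0.0058 without hCG and -0.067 to 0.0099 post-hCG, and *Mtf1* from -0.0263 to 0.12 and -0.0882 to 0.072, both crossing 0 uncalled, whereas *Slc31a1* post-hCG passed in 3 of 25 (-0.34 to -0.24). On log2 CPM, r of *Mt1* with *Slc30a1* on the putative ruptured side turned to 0.114 and with the theca level on the ruptured side post-hCG to 0.063. Calls of the ratio held with a pseudocount of 0.1 TPM. Low counts limit *Slc30a1*, *Mtf1* and *Mt3*.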

Other observations

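Ranked by the mean of the 4 within-group correlations with *Mt1*, a ranking chosen after seeing the data, *Mt2* came first (0.795), followed by *Lcn2* (0.668), *Scarb1* (0.659), *Cyp11a1* (0.635) and *Osgin1* (0.633), among 9888 genes. *Lcn2* encodes the siderophore-binding protein lipocalin 2, *Scarb1* the receptor for high-density lipoprotein and *Cyp11a1* the enzyme that starts steroid synthesis from cholesterol. Over all 54 libraries *Lcn2* had an r of only 0.23, against 0.865 for *Scarb1* and 0.864 for *Cyp11a1*. For *Slc39a14* the same ranking gave *Leo1* (0.587), *Lars* (0.582), *Ppp4r1* (0.561), *Cxadr* (0.547) and *Slc7a6os* (0.546). These values describe libraries that share depth and scaling, with no test.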
